A study of Homo sapiens with 12 samples.

Results

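The genes described here serve protein folding and quality control in the endoplasmic reticulum (ER). They were taken from a list of 46 names of ER chaperones, folding enzymes, sensors of the unfolded protein response and parts of the translocation and degradation machinery. Of these, 44 were among the 11548 genes of the table, and TXNDC5 and DERL3 were not analysed here. The 44 fall into 8 chaperones and co-factors, 7 disulphide enzymes, 4 J proteins, 5 sensors and transcription factors, 8 genes of ER-associated degradation and 12 genes of translocation into the ER.

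RNA of 3 wild-type human hepatocellular carcinoma (HCC) cell lines, Hep3B, Huh7 and MHCC97H, was sequenced untreated, with AZD8055, with compound #57, and with both drugs. AZD8055 is an inhibitor of the mTOR kinase in both of its complexes and was given at 100 nM, and compound #57 is an allosteric inhibitor of the phosphatase SHP2, given at 5 µM in the combination. The dose of compound #57 alone in the sequenced cells is not given in the sources used here. Exposure lasted 48 h in Hep3B and Huh7 and 24 h in MHCC97H, so that exposure time and MHCC97H cannot be told apart. Each cell line had 1 library per treatment, 12 in all, and the 3 cell lines served as the replicates of a treatment. The study asked what SHP2 inhibition adds to mTOR inhibition in HCC cells.

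The libraries held between 10667343 and 15968317 reads, of which 98.6% to 99.2% fell on genes of the table. Levels are given as normalised reads, the reads of a gene scaled to a library of 10000000 reads, so every level is relative to all other RNA of the same cells. All 19 hepatocyte markers examined were in the table. Their summed level was 330797 to 737977 normalised reads in Hep3B, 420972 to 587799 in Huh7 and 54094 to 62923 in MHCC97H, where APOC3 and TTR had 3 reads or fewer in a library. In Hep3B and Huh7 this sum was lowest with AZD8055 and highest with compound #57. In MHCC97H it was lowest in untreated cells and highest with AZD8055. Of 14 markers of blood, endothelial, stromal and bile duct cells, 4 were in the table (PECAM1, COL1A1, LUM and KRT19). Their summed level was 1735 to 6575 in Hep3B, 1420 to 3380 in Huh7 and 3102 to 3669 in MHCC97H, and in Hep3B and Huh7 it was lowest in untreated cells. The part of either sum in the results was not tested. In bulk RNA, fewer cells with a transcript and less of it per cell cannot be told apart.

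Proteins bound for secretion or membranes enter the ER through the SEC61 channel and fold there with the help of chaperones and of enzymes that form disulphide bonds. When unfolded proteins gather, the sensors ERN1 (IRE1), EIF2AK3 (PERK) and ATF6 start the unfolded protein response. IRE1 splices the mRNA of XBP1, PERK slows translation and raises ATF4, and a fragment of ATF6 moves to the nucleus, where XBP1 and ATF6 switch on chaperone genes. Liver cells export much of the protein of blood plasma and keep this machinery at a high level.

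The factors of this response read short elements in promoters, and the windows of 5 chaperones and XBP1, which hold such an element and were called lower with both drugs, are therefore shown first. The ER stress response element (ERSE) was searched as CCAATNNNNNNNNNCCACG, ERSE-II as ATTGGNCCACG, the core of the unfolded protein response element (UPRE) as TGACGTGG and the element read by ATF4 (CARE) as TGATGNAAT. The search covered both strands of the 250 bases before each gene start in RefSeq (build GRCh38.p14), for which 41 of the 44 members had an entry and PDIA3, DERL1 and SPCS1 had none. The following 6 windows run 5′ to 3′ in the direction of the gene, with capitals over each match of ERSE, ERSE-II or UPRE from its first to its last base.
HSPA5 (chr9:125241344-125241593, minus strand): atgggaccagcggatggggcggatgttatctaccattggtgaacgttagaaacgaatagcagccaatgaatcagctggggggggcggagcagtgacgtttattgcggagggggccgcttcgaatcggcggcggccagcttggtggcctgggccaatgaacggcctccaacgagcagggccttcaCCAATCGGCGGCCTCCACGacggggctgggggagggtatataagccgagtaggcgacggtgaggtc
HSP90B1 (chr12:103930160-103930409, plus strand): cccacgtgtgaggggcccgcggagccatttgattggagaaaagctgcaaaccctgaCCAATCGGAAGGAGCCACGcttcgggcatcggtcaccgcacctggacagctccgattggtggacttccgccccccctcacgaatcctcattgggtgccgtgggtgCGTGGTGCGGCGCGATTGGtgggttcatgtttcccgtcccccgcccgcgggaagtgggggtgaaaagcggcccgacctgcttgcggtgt
CALR (chr19:12938359-12938608, plus strand): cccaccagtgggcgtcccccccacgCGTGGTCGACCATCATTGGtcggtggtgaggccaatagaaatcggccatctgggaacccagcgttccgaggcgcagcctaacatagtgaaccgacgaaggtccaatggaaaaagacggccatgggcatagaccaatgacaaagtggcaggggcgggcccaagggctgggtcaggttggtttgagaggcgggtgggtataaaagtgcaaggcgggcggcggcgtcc
XBP1 (chr22:28800570-28800819, minus strand): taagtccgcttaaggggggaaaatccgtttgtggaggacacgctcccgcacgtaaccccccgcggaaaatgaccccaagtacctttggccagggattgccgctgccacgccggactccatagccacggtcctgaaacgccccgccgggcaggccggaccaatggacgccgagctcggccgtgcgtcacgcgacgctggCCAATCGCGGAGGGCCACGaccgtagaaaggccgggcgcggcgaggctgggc
SDF2L1 (chr22:21642052-21642301, plus strand): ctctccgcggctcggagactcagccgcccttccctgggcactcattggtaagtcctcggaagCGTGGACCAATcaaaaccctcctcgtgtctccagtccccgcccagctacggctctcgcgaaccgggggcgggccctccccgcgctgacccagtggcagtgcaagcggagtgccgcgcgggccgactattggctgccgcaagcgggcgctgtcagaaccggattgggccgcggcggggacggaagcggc
HYOU1 (chr11:119057206-119057455, minus strand): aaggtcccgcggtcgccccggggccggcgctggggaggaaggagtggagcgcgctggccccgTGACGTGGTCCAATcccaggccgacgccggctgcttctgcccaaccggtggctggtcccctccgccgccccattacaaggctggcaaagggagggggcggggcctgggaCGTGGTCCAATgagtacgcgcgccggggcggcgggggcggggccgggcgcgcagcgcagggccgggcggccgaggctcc

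In the windows of HSPA5 and XBP1 the ERSE lay 66 and 52 bases before the start in the direction of the gene. That of CALR lay 225 bases before the start on the other strand. HSP90B1 held 2 matches, at 194 bases in the direction of the gene and at 89 bases on the other strand. SDF2L1 held ERSE-II at 188 bases, and HYOU1 held it at 185 and 79 bases, the former overlapping a UPRE core. For the other members with an ERSE or ERSE-II the matched stretch alone is shown, with the fixed letters of the element in capitals.
CRELD2 (chr22:49918554-49918572, plus strand gene): CGTGGcgaactcggATTGG
PDIA6 (chr2:10812853-10812871, minus strand gene): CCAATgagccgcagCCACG
CANX (chr5:179698778-179698796, plus strand gene): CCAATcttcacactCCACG
ERO1LB (chr1:236282183-236282201, minus strand gene): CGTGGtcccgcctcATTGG
HERPUD1 (chr16:56932025-56932035, plus strand gene): ATTGGgCCACG

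The ERSE was found in 8 of the 41 members (19.5%) and in 0.0916% of the 27305 genes with a window. ERSE-II was found in 3 members (7.32%) and in 0.0659% of all genes. The UPRE core was found in 5 members (12.2%: HYOU1, DNAJC10, SEC62, SSR3 and SSR4) and in 0.78% of all genes, and CARE in 0 members and in 1.09% of all genes. A match describes letters and not a site in use. Members of the list are known targets of these elements, so that the shares describe the list and are no finding.

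Over all libraries the most abundant members per length of transcript were a disulphide enzyme and 2 chaperones. P4HB, the protein disulphide isomerase that also serves collagen prolyl hydroxylation, had a median of 5044 normalised reads per kb over the 12 libraries, with a range of 2892 to 6605. CALR (calreticulin), a lectin chaperone, followed with a median of 4774 (1962 to 8107), and HSP90B1 (GRP94), the HSP90 of the ER, with 4191 (2539 to 6941). These ranges overlapped, so the 3 genes have no firm order. HSPA5 (BiP, GRP78), the HSP70 of the ER and the protein that holds the sensors inactive, stood sixth with a median of 1573 (514 to 3147). SSR2, a subunit of the translocon-associated protein complex, led the translocation genes with 2741 (2022 to 3934), and DNAJB11, a J protein that works with HSPA5, led the J proteins with 755 (263 to 1770). XBP1 led the sensors and factors with 1483 (460 to 3686) per kb, SEL1L led the degradation genes with 249 (192 to 362), and ERN1 was far lower, with a median of 30.8 and a lowest level of 18.2. The lowest medians were those of AGR2 and ERO1LB (now ERO1B), of 9.15 and 8.52 per kb.

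Together the 44 members held a smaller share of the reads in every treated library than in the untreated library of the same line. In Hep3B the share was 1.46% in untreated cells, 1.30% with AZD8055, 0.973% with compound #57 and 0.881% with both drugs. Huh7 had 1.43%, 0.939%, 1.02% and 0.723% in the same order. MHCC97H had 1.18%, 0.716%, 1.05% and 0.725%. Chaperones made the largest part of the difference with both drugs, with 0.575% in untreated Hep3B and 0.321% under the combination. In Hep3B the share was lower with compound #57 alone than with AZD8055 alone, in MHCC97H it was about the same with AZD8055 alone as with both drugs, and in Huh7 both single drugs lay between. With 1 library per line and treatment these differences between lines were not tested.

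With both drugs, 26 of the 44 members fell and 2 rose against untreated cells, among them 7 of 8 chaperones, 5 of 7 disulphide enzymes, 3 of 4 J proteins and 9 of 12 translocation genes, but 1 of 8 degradation genes. The members that rose were ATF6 and EIF2AK3, both sensors. These calls came from limma, fitted to all 12 libraries in a model of treatment plus cell line, with a Benjamini-Hochberg adjusted p under 0.05 over all 11548 genes, here and below. Of all genes, 15.1% were called lower and 20.9% higher in this comparison. The median log2-fold change of the members was -0.58, beside 0.09 for all genes. In each line separately, 32 members were lower in all 3 lines, beside 25.6% of all genes, and 4 were higher in all 3 (ATF6, ATF6B, EIF2AK3 and EDEM2), beside 33.4% of all genes. The calls ended without the Huh7 libraries and without the cell line term. Without Huh7, 0 members were called (adjusted p between 0.0641 and 0.285 for the 28, each with its direction kept), when 11 of all genes were. That fit had fewer libraries, and the median log2-fold change of the members in it was -0.51. Without the cell line term, which pairs the libraries, 0 members and 0% of all genes were called. Why the calls ended was not tested.

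Among the chaperones, HSPA5 had normalised reads of 10279 in untreated cells, 8291 with AZD8055, 5716 with compound #57 and 4364 with both drugs in Hep3B. In Huh7, HSPA5 stood at 12339 in untreated cells, 6617 with AZD8055, 7117 with compound #57 and 3801 with both drugs. MHCC97H cells had 8448 in untreated cells, 2187 with AZD8055, 5554 with compound #57 and 2014 with both drugs. HSPA5 was thus lower in each treated library than in the untreated library of its line, and the combination was the lowest of the 4 in every line, in MHCC97H only slightly below AZD8055. The log2-fold change with both drugs was -1.67 ± 0.29 (SE, adjusted p = 0.00431), a 3.18-fold fall.

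SDF2L1, a partner of ER J proteins whose promoter holds ERSE-II, fell by the largest factor of the chaperones. It had 418 in untreated cells, 282 with AZD8055, 221 with compound #57 and 110.1 with both drugs in Hep3B. Levels of SDF2L1 in Huh7 were 139.7 in untreated cells, 64.0 with AZD8055, 111 with compound #57 and 28.4 with both drugs. In MHCC97H they were 174 in untreated cells, 52.6 with AZD8055, 125 with compound #57 and 37.2 with both drugs. Its combination level was the lowest of each line, and in Huh7 it rested on 33 reads. SDF2L1 changed by -2.12 ± 0.27 (SE, adjusted p = 0.0021) with both drugs, 4.35-fold lower.

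HYOU1 (GRP170), the nucleotide exchange factor of HSPA5, went from 5198 to 2438 in Hep3B, from 4568 to 1245 in Huh7 and from 3127 to 1017 in MHCC97H between untreated cells and the combination, a change of -1.53 ± 0.24 (SE, adjusted p = 0.00301). HSP90B1 went from 13574 to 7065 in Hep3B, from 19311 to 7854 in Huh7 and from 15095 to 7618 in MHCC97H, a change of -1.08 ± 0.22 (SE, adjusted p = 0.00708). For CALR the levels went from 14764 to 8216 in Hep3B, from 15410.0 to 5939.6 in Huh7 and from 8984 to 3729.6 in MHCC97H, a change of -1.16 ± 0.24 (SE, adjusted p = 0.00769). All 3 genes were lower with both drugs in every line, and MHCC97H had the lowest untreated level of CALR and HYOU1. MANF, a secreted protein of the ER stress response, went from 406 to 252 in Hep3B, from 498 to 228 in Huh7 and from 559.7 to 148 in MHCC97H and changed by -1.24 ± 0.29 (SE, adjusted p = 0.011). CRELD2, an ER protein induced by stress, changed by -0.98 ± 0.24 (SE, adjusted p = 0.0132). CANX (calnexin), the membrane-bound lectin chaperone, was the chaperone that did not pass the test: its levels went from 12557 to 9382 in Hep3B, from 13104 to 10243 in Huh7 and from 10781 to 8703 in MHCC97H, an estimate of -0.36 ± 0.15 (SE, adjusted p = 0.0901).

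Of the disulphide enzymes, PDIA4 (ERp72) had 6094 in untreated cells, 4574 with AZD8055, 3382 with compound #57 and 2601 with both drugs in Hep3B. In Huh7 its levels were 6530.5 in untreated cells, 3444 with AZD8055, 3924 with compound #57 and 2012 with both drugs. PDIA4 in MHCC97H was at 4735 in untreated cells, 1935 with AZD8055, 3559.8 with compound #57 and 1685 with both drugs. Every treated level lay below its untreated level, with AZD8055 close to the combination in MHCC97H and compound #57 closer to it in Hep3B. PDIA4 changed by -1.47 ± 0.21 (SE, adjusted p = 0.00263) with both drugs. PDIA6 changed by -1.15 ± 0.22 (SE, adjusted p = 0.00532) and PDIA3 (ERp57), the partner of calnexin and calreticulin, by -1.08 ± 0.22 (SE, adjusted p = 0.00718). P4HB changed by -0.67 ± 0.17 (SE, adjusted p = 0.0142), with levels that went from 15347 to 8651 in Hep3B, from 13100.0 to 7047 in Huh7 and from 16097 to 13050.0 in MHCC97H. PDIA5 stood at -0.47 ± 0.19 (SE, adjusted p = 0.074) and ERO1LB, an oxidase that recharges these enzymes, at 0.31 ± 0.43 (SE, adjusted p = 0.603), and neither passed the test.

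AGR2, a disulphide isomerase best known from mucus-secreting cells, was abundant in MHCC97H only, with 6355 in untreated cells, 2902 with AZD8055, 5033 with compound #57 and 2291 with both drugs. In Hep3B it had 29 reads in untreated cells and 8, 10 and 0 reads with AZD8055, compound #57 and both drugs, and in Huh7 39, 8, 7 and 2 reads. The untreated library was the highest of its line in all 3 lines. Against a floor of 3 reads in the Hep3B combination library, AGR2 was at least 11.2-fold lower than in untreated cells, and in Huh7 the ratio of the scaled reads was 14.2-fold, on 2 reads, with a 95% interval of 3.68 to 121 for counting error. In MHCC97H the log2 difference was -1.47 (95% interval -1.53 to -1.41). The fitted change was called (adjusted p = 0.00335), but its size depends on the value added before the log for the few reads in 2 of the lines.

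The J proteins bring substrates to HSPA5. DNAJB11 (ERdj3) went from 2902 to 1750.0 in Hep3B, from 1695 to 820.5 in Huh7 and from 1196 to 432 in MHCC97H between untreated cells and both drugs and changed by -1.08 ± 0.22 (SE, adjusted p = 0.0068). DNAJC3 (p58IPK), which also restrains PERK, changed by -0.93 ± 0.21 (SE, adjusted p = 0.0107), and DNAJC10 (ERdj5), which reduces disulphides, by -0.62 ± 0.20 (SE, adjusted p = 0.04). DNAJB9 (ERdj4), a J protein known as a target of XBP1, differed from them. Its levels went from 202 to 241 in Hep3B, from 683 to 548 in Huh7 and from 350.1 to 391 in MHCC97H, up in 2 lines and down in Huh7, with an estimate of 0.03 ± 0.17 (SE, adjusted p = 0.895).

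Of the 5 sensors and factors, XBP1 fell, ATF6 and EIF2AK3 rose, and ATF6B and ERN1 did not pass the test. XBP1 had 4531 in untreated cells, 4372 with AZD8055, 2634 with compound #57 and 2019 with both drugs in Hep3B. In Huh7 XBP1 stood at 6602 in untreated cells, 3635 with AZD8055, 3909.7 with compound #57 and 2677 with both drugs. MHCC97H held 1344 in untreated cells, 1251 with AZD8055, 1513 with compound #57 and 825 with both drugs for XBP1. The combination was the lowest level in each line, while the single drugs left XBP1 near its untreated level in MHCC97H. XBP1 changed by -1.06 ± 0.21 (SE, adjusted p = 0.00628) with both drugs. The table gives 1 value per gene, so spliced and unspliced XBP1 were not separated.

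ATF6 rose, with 896 in untreated cells, 1365 with AZD8055, 901 with compound #57 and 1684 with both drugs in Hep3B. Huh7 had 526 in untreated cells, 821 with AZD8055, 530.1 with compound #57 and 765 with both drugs for the same gene. In MHCC97H, ATF6 was at 629.6 in untreated cells, 798 with AZD8055, 721 with compound #57 and 891 with both drugs. In each line both libraries with AZD8055 lay above both libraries without it. The change with both drugs was 0.65 ± 0.13 (SE, adjusted p = 0.00728). EIF2AK3 changed by 0.45 ± 0.15 (SE, adjusted p = 0.0458), with levels that went from 476 to 869 in Hep3B, from 642 to 783 in Huh7 and from 276 to 314 in MHCC97H, and Hep3B had the widest step. The call of EIF2AK3 ended with each library centred on its median (adjusted p = 0.0817), with only the 6 libraries compared (adjusted p = 0.142) and without Hep3B (adjusted p = 0.343), and that of ATF6 ended without Hep3B (adjusted p = 0.0705). ATF6B, the close relative of ATF6, had an estimate of 0.37 ± 0.20 (SE, adjusted p = 0.159), with levels that went from 1289 to 1413 in Hep3B, from 595 to 599 in Huh7 and from 642 to 1261 in MHCC97H, so that the difference was large in MHCC97H alone. ERN1 stood at -0.01 ± 0.16 (SE, adjusted p = 0.965), with levels that went from 292 to 256 in Hep3B, from 163 to 167 in Huh7 and from 258 to 281 in MHCC97H.

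**Figure D1:**
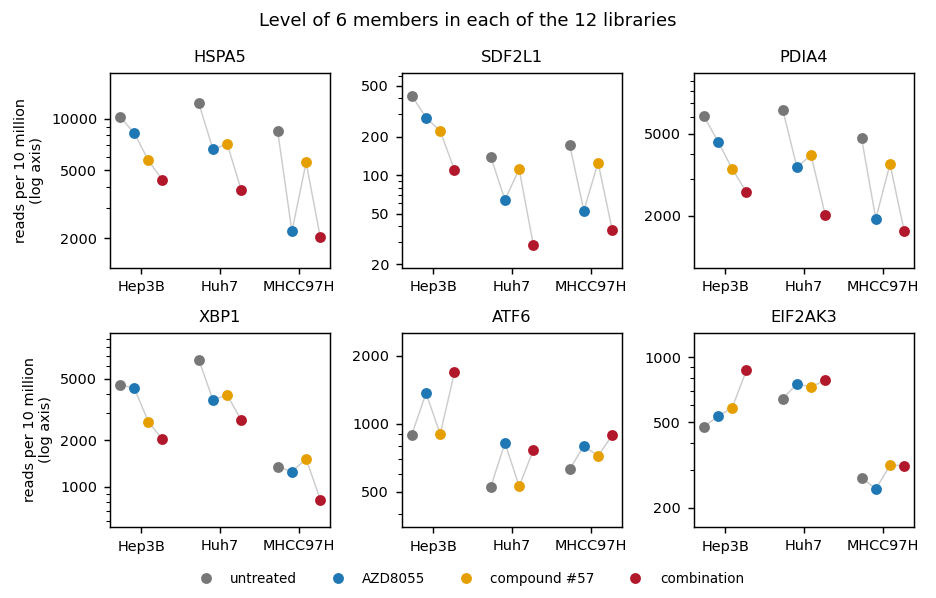
Levels of HSPA5, SDF2L1, PDIA4, XBP1, ATF6 and EIF2AK3 as normalised reads (per 10000000) on log axes, with 1 point per library, 4 treatments per cell line from left to right (untreated, AZD8055, compound #57, combination) and grey lines joining the libraries of a line. HSPA5 falls from 12339 to 3801 in Huh7, while ATF6 rises from 896 to 1684 in Hep3B.

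In ER-associated degradation, which pulls misfolded proteins out of the ER for the proteasome, EDEM3 was the only one of 8 members called. EDEM3, a mannose-trimming protein, went from 1808 to 1433 in Hep3B, from 879 to 456 in Huh7 and from 973 to 801 in MHCC97H and changed by -0.52 ± 0.15 (SE, adjusted p = 0.0264). The ubiquitin ligase SYVN1 (HRD1) stood at -0.36 ± 0.14 (SE, adjusted p = 0.0636) and its partner SEL1L at -0.16 ± 0.14 (SE, adjusted p = 0.386). HERPUD1, a part of the same complex, stood at -0.28 ± 0.20 (SE, adjusted p = 0.296), and its window holds ERSE-II. The other 4 were DERL2 at -0.24, EDEM1 at -0.16, DERL1 at -0.03 and EDEM2 at 0.27 on the log2 scale, with adjusted p between 0.109 and 0.869. The median of the 8 was -0.20, beside -1.20 for the chaperones.

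Of the translocation genes, the 3 members of the SEC61 channel fell. SEC61A1, the pore, went from 6521 to 3620.1 in Hep3B, from 7505 to 3729.9 in Huh7 and from 5836 to 3552 in MHCC97H and changed by -0.86 ± 0.16 (SE, adjusted p = 0.00502), SEC61B by -0.63 ± 0.16 (SE, adjusted p = 0.0152) and SEC61G by -0.72 ± 0.19 (SE, adjusted p = 0.017). SEC63, the J protein of the channel, changed by -0.55 ± 0.14 (SE, adjusted p = 0.0163), while its partner SEC62, which is also a receptor for ER turnover, stood at -0.00 ± 0.13 (SE, adjusted p = 0.989). The subunits of the translocon-associated protein complex split. SSR1 changed by -0.98 ± 0.19 (SE, adjusted p = 0.00547) and SSR3 by -0.84 ± 0.18 (SE, adjusted p = 0.00889), whereas SSR4 was at -0.34 ± 0.15 (SE, adjusted p = 0.107) and SSR2 at -0.08 ± 0.13 (SE, adjusted p = 0.653). The 3 accessory subunits of signal peptidase among the members fell, with -1.06 ± 0.24 for SPCS3, -0.52 ± 0.16 for SPCS2 and -0.42 ± 0.14 for SPCS1 (log2 ± SE, adjusted p = 0.00997, 0.0282 and 0.0425). Its catalytic subunits, which are no members, did not pass the test, with SEC11A at 0.21 ± 0.13 (SE, adjusted p = 0.234) and SEC11C at -0.70 ± 0.30 (SE, adjusted p = 0.0954). The median of the 12 translocation genes was -0.59.

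Members with an ERSE or ERSE-II in the window before the start had a lower median estimate than the rest. The 11 of them had a median log2-fold change of -1.08 with both drugs (range -2.12 to 0.31), and 8 were called lower. The 30 with neither element had a median of -0.52 (range -3.17 to 0.65), with 16 called lower and 2 higher. Every chaperone but MANF held an element, and the chaperones had the lowest median of the roles (-1.20). Element and role can therefore not be told apart here. The members with an element were not uniform, since CANX, HERPUD1 and ERO1LB were not called. As the list was chosen with these results known, no test was made of this difference.

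With AZD8055 alone, most members were lower but none passed the test over all genes. The count of members called by limma was 0 of 44, where 2.96% of all genes were called, and 25 members had an unadjusted p under 0.05, of which 24 were lower, beside 27.4% of all genes, with 12.2% lower. The smallest adjusted p was 0.0518, for PDIA4, with -0.88 ± 0.21, and next came SDF2L1 (0.052) and ATF6 (0.0575, higher). On recovered whole reads, voom called 1, and 3.76% of all genes. The median log2-fold change was -0.38, beside 0.03 for all genes, and 26 members were lower in all 3 lines, beside 25.7% of all genes. ERO1LB, ATF6 and ERN1 were higher in all 3, as were 28.4% of all genes. For ERO1LB the intervals for counting error took in no change in Huh7 and MHCC97H.

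The lines differed in how far members moved with AZD8055, as differences between 2 libraries. At least 1.5-fold lower were 1 member in Hep3B (4.32% of all genes), 18 in Huh7 (10.1%) and 20 in MHCC97H (10.5%). HSPA5 had a log2 difference of -0.31 (95% interval -0.35 to -0.27) in Hep3B. In Huh7 it was -0.90 (95% interval -0.94 to -0.86) and in MHCC97H -1.95 (95% interval -2.01 to -1.89), where the intervals cover counting error only, as below. MANF stood at 0.18 in Hep3B, with a 95% interval of -0.0075 to 0.36 that takes in no change, and at -1.59 in MHCC97H. XBP1 was lower in Huh7, by -0.86, and close to untreated in Hep3B (-0.05) and MHCC97H (-0.10). ATF6B was higher in MHCC97H by 0.95 and lower in Huh7 by -0.21. In MHCC97H 11 members were at least 2-fold lower and 0 at least 2-fold higher, beside 3.07% and 7.14% of all genes. Among the 11 were SDF2L1 at -1.70, MANF, DNAJB11 at -1.33, HYOU1 at -1.29 and PDIA4 at -1.29. For the same genes, Hep3B had -0.57, 0.18, -0.14, -0.29 and -0.41 in that order. The members highest against untreated cells in Hep3B were ATF6 at 0.61, DNAJB9 at 0.59 and ERO1LB at 0.58. The medians of the 8 chaperones were -0.16 in Hep3B, -0.81 in Huh7 and -1.27 in MHCC97H.

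With compound #57 alone, 38 of 44 members had a negative estimate, and again none was called. The count by limma was 0 of 44, where 0.00866% of all genes (1 gene) was called. The count by voom was also 0 of 44, where 0.779% of all genes were called. At an unadjusted p under 0.05 were 12 members, all lower, beside 21.7% of all genes, with 8.1% lower. The median was -0.32, beside 0.05 for all genes, and 28 members were lower in all 3 lines, beside 19.7% of all genes. The smallest unadjusted p was that of SSR2, with -0.47 ± 0.13 (SE, adjusted p = 0.113). HSPA5 had an estimate of -0.75 ± 0.29 (SE, adjusted p = 0.185) and XBP1 of -0.46 ± 0.21 (SE, adjusted p = 0.244).

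The order of the lines was the opposite of that with AZD8055. At least 1.5-fold lower were 18 members in Hep3B (12.6% of all genes), 9 in Huh7 (5.57%) and 1 in MHCC97H (2.76%). HSP90B1 differed by -0.89 (95% interval -0.92 to -0.85) in Hep3B, -0.82 in Huh7 and -0.25 in MHCC97H. SSR1 was lower by at least 2-fold in Hep3B, at -1.02, and at -0.10 in MHCC97H. EDEM1, a degradation factor, was higher in Hep3B, at 0.72, and at -0.05 in MHCC97H. The chaperone medians were -0.66 in Hep3B, -0.47 in Huh7 and -0.30 in MHCC97H. Both single drugs were compared with the same untreated libraries.

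With compound #57 added to AZD8055, 39 members were lower in Hep3B, 33 in Huh7 and 22 in MHCC97H, beside 47.7%, 46.3% and 44.1% of all genes. In the fit over 3 lines, limma and voom each called 0 of 44, as of all genes (0% in both). At an unadjusted p under 0.05 were 8 members (7 lower), beside 14.5% of all genes (5.19% lower). The smallest unadjusted p was that of SDF2L1, at -0.99 ± 0.27 (SE, adjusted p = 0.205), followed by XBP1 at -0.72 ± 0.21 (SE, adjusted p = 0.224). At least 1.5-fold lower were 20 members in Hep3B (10.5% of all genes), 10 in Huh7 (7.2%) and 1 in MHCC97H (4.63%). The median difference of the members was -0.56 in Hep3B, -0.29 in Huh7 and 0.01 in MHCC97H. In MHCC97H, XBP1 was an exception to this small median, with a difference of -0.60 (95% interval -0.71 to -0.49).

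With AZD8055 added to compound #57, SDF2L1 was called lower and ATF6 higher, where 1.57% of all genes were called lower and 2.62% higher, SDF2L1 at -1.55 ± 0.27 (SE, adjusted p = 0.025) and ATF6 at 0.58 ± 0.13 (SE, adjusted p = 0.0454). Both calls ended without Hep3B (adjusted p = 0.119 for SDF2L1 and 0.21 for ATF6), without Huh7 (0.402 and 0.41) and without the cell line term, and that of ATF6 also with only the 6 libraries compared (0.0881) and without MHCC97H (0.0524). With the 2 called members counted, 20 members (18 lower) had an unadjusted p under 0.05, beside 25.3% of all genes (12% lower). Among those that did not pass were HSPA5 at -0.92 ± 0.29 (SE, adjusted p = 0.0968) and HYOU1 at -0.88 ± 0.24 (SE, adjusted p = 0.065). At least 1.5-fold lower were 2 members in Hep3B (8.36% of all genes), 18 in Huh7 (11.5%) and 16 in MHCC97H (11.6%). The change with both drugs was also set against the sum of the changes with each drug. No member was called there by limma or voom (0 of 44, and 0% of all genes), and 1 had an unadjusted p under 0.05, SSR2, which was higher than the sum. The median departure from the sum was 0.05 on the log2 scale. These comparisons share libraries with those above.

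Other genes of ER proteostasis, from lists of the PERK and ATF4 arm and of related machinery, were read in the same fit of the combination against untreated cells. The counts of these lists stand beside the 15.1% of all genes called lower and the 20.9% called higher. In the PERK and ATF4 arm, 4 of 15 genes in the table were called lower and 2 higher. ATF3 rose by 2.56 ± 0.32 (SE, adjusted p = 0.0021) and PPP1R15A (GADD34), which ends PERK signalling, by 1.63 ± 0.29 (SE, adjusted p = 0.00456). TRIB3 changed by -0.98 ± 0.23 (SE, adjusted p = 0.0106), ASNS (asparagine synthetase) by -0.96 ± 0.30 (SE, adjusted p = 0.0331), SESN2 by -0.83 ± 0.23 (SE, adjusted p = 0.021) and EIF2S1, the substrate of PERK, by -0.81 ± 0.16 (SE, adjusted p = 0.00595). ATF4 itself stood at 0.21 ± 0.12 (SE, adjusted p = 0.183) and DDIT3 (CHOP), its pro-apoptotic target, at -0.09 ± 0.30 (SE, adjusted p = 0.84). Known ATF4 targets thus moved in both directions. With AZD8055 alone PPP1R15A was the only gene of this list called, at 1.31 ± 0.29 (SE, adjusted p = 0.0467), and with compound #57 alone none of the 15 was, where 1 gene of the whole table was.

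Among 35 other ER folding enzymes, 8 were called lower and 2 higher. FKBP14, a prolyl isomerase for collagen, changed by -1.53 ± 0.22 (SE, adjusted p = 0.0028), PPIB (cyclophilin B) by -1.14 ± 0.22 (SE, adjusted p = 0.00604) and PRDX4, an ER peroxiredoxin, by -0.97 ± 0.19 (SE, adjusted p = 0.00657), while SUMF2 rose by 0.82 ± 0.16 (SE, adjusted p = 0.00559). Of 25 genes of N-glycosylation and the calnexin cycle, 10 were called lower and 0 higher. They included the oligosaccharyltransferase subunits RPN2 at -0.86 ± 0.19 (SE, adjusted p = 0.00871), RPN1 at -0.76 ± 0.14 (SE, adjusted p = 0.00466) and STT3A at -0.73 ± 0.17 (SE, adjusted p = 0.0107), and UGGT1, the folding checkpoint of the calnexin cycle, at -0.82 ± 0.19 (SE, adjusted p = 0.0116). Of 21 genes of COPII export from the ER, 9 were called lower and 2 higher, led by SEC24D, a cargo adaptor, at -1.32 ± 0.23 (SE, adjusted p = 0.00434) and PREB, which activates SAR1, at -0.87 ± 0.13 (SE, adjusted p = 0.00301).

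Of 27 other degradation genes, 4 were called lower and 5 higher, shares close to those of all genes. VCP, the ATPase that extracts substrates, changed by -0.57 ± 0.14 (SE, adjusted p = 0.012), and the ubiquitin ligase RNF5 rose by 0.70 ± 0.11 (SE, adjusted p = 0.00335). Of 19 other translocation genes, 5 were called lower and 3 higher, with SRPRB, a subunit of the signal recognition particle receptor, at -1.16 ± 0.22 (SE, adjusted p = 0.00504) and CAMLG, a receptor for tail-anchored proteins, at 1.34 ± 0.17 (SE, adjusted p = 0.00211). Falls were not confined to the ER. Of 32 chaperones of the cytosol and mitochondria, 22 were called lower and 1 higher, with a median of -0.63, beside -0.58 for the 44 members. FKBP4, a co-chaperone of HSP90, changed by -1.30 ± 0.22 (SE, adjusted p = 0.00379), HSPE1, the mitochondrial HSP10, by -1.08 ± 0.15 (SE, adjusted p = 0.00257) and HSPA9, the mitochondrial HSP70, by -0.98 ± 0.16 (SE, adjusted p = 0.0037), while DNAJB2 rose by 1.29 ± 0.18 (SE, adjusted p = 0.00264).

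The cell lines themselves differed in many members, over 4 libraries of each line in the same model. The p-values measure the spread between libraries of 1 line after the treatment term, and for MHCC97H line and exposure time cannot be told apart. MHCC97H differed from Hep3B in 31 members (5 higher, 26 lower), where 29.2% of all genes were called higher and 38.6% lower, and from Huh7 in 28 (11 higher, 17 lower), where 33.8% were higher and 36.4% lower. Hep3B differed from Huh7 in 21 (18 higher, 3 lower), where 30.7% were higher and 24.5% lower. Of all genes, 67.8%, 70.2% and 55.1% were called in either direction in the 3 comparisons, close to the members' shares or above them.

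The largest difference was that of AGR2, described above, which was higher in MHCC97H than in both other lines (adjusted p = 5.47e-08 and 5.88e-08). SSR4 was higher in MHCC97H too, by 1.02 ± 0.13 (SE, adjusted p = 6.98e-05) against Hep3B and 1.72 ± 0.13 (SE, adjusted p = 1.38e-06) against Huh7, as was EDEM2, by 1.05 ± 0.12 (SE, adjusted p = 2.83e-05) and 1.08 ± 0.12 (SE, adjusted p = 2.09e-05). Lower in MHCC97H than in Hep3B were ERO1LB at -1.92 ± 0.38 (SE, adjusted p = 0.0012), DNAJB11 at -1.73 ± 0.19 (SE, adjusted p = 2.35e-05) and PDIA6 at -1.54 ± 0.19 (SE, adjusted p = 5.07e-05). Against Huh7 the lowest were XBP1 at -1.73 ± 0.18 (SE, adjusted p = 1.50e-05), PDIA5 at -1.61 ± 0.16 (SE, adjusted p = 9.92e-06) and ERO1LB at -1.52 ± 0.38 (SE, adjusted p = 0.00452). Between Hep3B and Huh7, SDF2L1 was higher in Hep3B by 1.65 ± 0.23 (SE, adjusted p = 2.37e-04), EDEM3 by 1.37 ± 0.13 (SE, adjusted p = 2.46e-05) and ATF6B by 1.30 ± 0.17 (SE, adjusted p = 1.56e-04). DNAJB9 was lower in Hep3B, at -1.37 ± 0.15 (SE, adjusted p = 4.81e-05), as were PDIA5 at -0.66 ± 0.16 (SE, adjusted p = 0.00609) and SEC61B at -0.47 ± 0.14 (SE, adjusted p = 0.0167).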

How the data were processed

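PolyA+ stranded libraries (per the labels) were made with a TruSeq RNA kit, and the authors used hg38 as the genome and deposited 1 table of log2 values per gene and library. The aligner, the counting and the annotation are not given in the sources used here. The deposited log2 values were read as log2(reads per 10000000 + 1) with 0.001 added to each value. On this scale 100% of the values gave whole reads within 0.01 of a read. All values were kept, and 18 genes with names turned into dates were tested without a name.

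limma 3.58.1 in R 4.3.3 (lmFit, eBayes with trend) was fitted to all 11548 genes and 12 libraries in a model of treatment plus cell line, and p-values were adjusted by Benjamini-Hochberg over all genes, with a threshold of 0.05. Libraries are paired by their cell line, and deviations of libraries of 1 line correlated between 0.872 and 0.960. Within a line, differences between 2 libraries were given with a 95% interval of the read ratio (Clopper-Pearson), which covers counting error only, and no p-value. Tested on simulated data for AZD8055 against untreated (11548 genes), limma called 62% of 50 genes raised by 1 on the log2 scale, 16% of 50 at 0.5 and 94% of 50 at 2. The changed genes were drawn from those with a higher mean, and 11348 genes were unchanged. These rates were therefore not tested for genes of low level or for comparisons in which many genes change. Transcript lengths came from GENCODE release 44 on hg38.

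The members and lists were chosen with earlier results of these data known. Every member in the table could be named. A rule set which were named in any case: members called or at least 2-fold apart in a line, and the highest member of each role. So were the 3 called members of each direction with the largest difference between lines. Of each other list at most 6 called genes were named, and besides them ATF4, DDIT3, SEC11A and SEC11C, which were not called. The result of a single gene of the other lists is not reported here. Alternatives tried were 10 in place of 1 added before the log, the 75% of genes with the highest mean, centring on library medians, no cell line term, voom on whole reads, only the libraries compared, each cell line left out, and 2-fold in place of 1.5-fold.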

Additional observations from a re-analysis of the deposited data

Results flagged for a closer look

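In 3 members, adding compound #57 to AZD8055 went with a higher level in MHCC97H and a lower level in Hep3B and Huh7, each by at least 0.3 on the log2 scale and with counting intervals that leave out no change. ERO1LB, an ER oxidase, had log2 differences between the combination and AZD8055 of 1.29 in MHCC97H, -0.96 in Hep3B and -0.69 in Huh7. In MHCC97H they rested on 42 and 19 reads, and the exposure in that line was 24 h against 48 h in the others. DNAJB9, a J protein and known XBP1 target, had 0.33, -0.34 and -0.41 in the same order of lines. DNAJC3, a J protein that restrains PERK, had 0.32, -0.74 and -0.56. With 1 library per line and treatment, the differences between the lines were not tested.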

How the results depend on the processing

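The 28 members called with both drugs against untreated cells were 28 with 10 added to the linear values and with voom, 26 of the 41 left among the 75% of genes with the highest mean, 31 after centring, of which 27 were among the 28, and 22 with only the 6 libraries compared. Leaving out 1 cell line gave 0 (without Huh7) to 26 calls (without MHCC97H), and 19 without Hep3B. Of all genes, 36% were called in the main fit, 36.2% with 10 added, 35.9% with voom and 36.6% after centring. Among the 75% of genes the share was 38.3%, and with only the 6 libraries 16.4%. Without Huh7 it was 0.0953%, without MHCC97H 32.7% and without Hep3B 15.6%, so the share of all genes called moved as well. Without the cell line term (no replicate block) the count was 0 in this comparison and 0 for the combination against compound #57, as of all genes (0% in both). In each of these settings the direction of the 28 was kept where they were tested. With AZD8055 alone the 0 calls became 1 with 10 added (2.81% of all genes called), 1 among the 75% of genes (4.01%), 2 after centring (4.1%) and 1 with voom (3.76%). With compound #57 alone, leaving out a line gave 0 to 2 calls (2 without MHCC97H, when 6.74% of all genes were called). For the combination against compound #57, the 2 calls (4.18% of all genes called) became 1 among the 75% of genes (5.63%) and 1 with only the 6 libraries (2.29%). Leaving out a line gave 0 without Hep3B (0.00866%), 0 without Huh7 (0%) and 1 without MHCC97H (2.87%). The causes were not tested.

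A limit of 2-fold in place of 1.5-fold left fewer members apart within a line in either direction. For Hep3B, Huh7 and MHCC97H these were 1, 3 and 11 with AZD8055, all lower. Of all genes, 0.823%, 2.52% and 3.07% were lower by this limit and 3.81%, 5.89% and 7.14% higher. With compound #57 they were 2, 1 and 0, all lower, beside 3.75%, 1.52% and 0.84% of all genes lower and 8.96%, 4.43% and 3.12% higher. With both drugs they were 9, 17 and 11, of which 1 in MHCC97H was higher. Of all genes, 6%, 6.46% and 4.72% were then lower and 11.6%, 12% and 11.4% higher. Against AZD8055 the combination had 4, 2 and 1, of which the 1 in MHCC97H was higher. Of all genes, 3.33%, 1.84% and 1.13% were lower there and 5.73%, 4% and 2.81% higher. Against compound #57 it had 1, 3 and 9, all lower, beside 2.75%, 3.12% and 3.3% of all genes lower and 2.68%, 5.63% and 4.97% higher. Against the sum it had 0, 0 and 0, where in Hep3B 4.17% of all genes were lower and 0.953% higher. At the 1.5-fold limit with 10 added, 1 member in place of 2 was apart in MHCC97H with compound #57, as after centring, and 2, 2 and 1 in place of 4, 1 and 2 against the sum.

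Some genes without a call changed direction. ATF4 with compound #57 was -0.014 after centring. DDIT3 without 1 cell line ranged from -0.64 to 0.10 with AZD8055, -0.58 to 0.39 with both drugs and -0.093 to 0.43 with compound #57. EIF2AK3 with AZD8055 ranged from -0.0073 to 0.19, and ERN1 with both drugs from -0.079 to 0.077. Depth limits AGR2 in Hep3B and Huh7 and ERO1LB in all lines, and 1 library per line and treatment limits every comparison.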
